A study of Mus musculus with 2 samples.

Results

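The interferon regulatory factor (Irf) genes Irf1, Irf2, Irf3, Irf4, Irf5, Irf7, Irf8 and Irf9 were examined in stretched and control mouse skin. These 8 genes were taken by name from the 24421 gene symbols of the count table. The study applied a stretching device to the back skin of wild type C57BL6/J mice, and its methods describe female mice of 8 weeks with hairs in the resting (telogen) phase. RNA-seq was performed on whole-layer skin harvested on day 5, with 1 library from skin stretched over 5 days from an initial strain of 33%, which the methods describe as raised daily, and 1 from skin without stretch. Skin under the attached ends of the device was discarded before harvest, and the number of mice behind each library is not given in the sources used here. With 1 library per condition there is no replicate check and no p-value. Intervals are 95% intervals of counting error in these libraries, and they say nothing about the spread between mice.

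IRF proteins are transcription factors with a shared DNA-binding domain that recognises the interferon-stimulated response element, a repeat of GAAA. Irf3 and Irf7 are activated by kinases downstream of receptors for viral nucleic acids and switch on the type I interferon genes. Secreted interferon then acts through its receptors on STAT proteins, which join Irf9 to form the complex ISGF3, and Irf7 is itself a target of that complex. Irf1 is induced by interferon gamma, while Irf2 competes for the same sites and dampens transcription. Irf4, Irf5 and Irf8 are known from blood-derived cells. Irf8 directs the development of monocytes and dendritic cells, Irf5 drives inflammatory cytokine genes, and Irf4 acts in alternatively activated macrophages, lymphocytes and also melanocytes.

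Library totals were 14152379 counts (control) and 11648655 counts (stretched), and the 8 Irf genes together held 2742 and 3417 of them. Every Irf gene had at least 99 counts in each library. All 8 are protein-coding genes in GENCODE M21 on mm10. Irf3 and Irf7 lie on chromosome 7, Irf2 and Irf8 on chromosome 8, Irf5 on chromosome 6, Irf1 on chromosome 11, Irf4 on chromosome 13 and Irf9 on chromosome 14. The reads cannot be assigned to a strand with certainty, because the counting program and its strand setting are not named in the sources used here. This touches Irf5 most, since 14.1% of its exonic bases lie inside exons of Tnpo3 on the opposite strand. Tnpo3 had 1372 counts in the control library and 952 in the stretched library (log2 fold change -0.25), so it differed in the other direction from Irf5. For the other members the overlap was at most 3.4% of the exonic bases, and no member shared more than 9.17% of its 76-base stretches with another gene.

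The Irf genes were expressed at low to moderate levels in both libraries. FPKM, the count scaled to exon length and to the total of the library, was used to compare levels between genes. In control skin the order from high to low was Irf3 (15.0 FPKM), Irf5 (8.49), Irf9 (6.22), Irf1 (5.49), Irf4 (3.52), Irf7 (3.39), Irf2 (3.38) and Irf8 (0.992). Of the neighbours in this order, Irf9 and Irf1, Irf4 and Irf7, and Irf7 and Irf2 did not differ beyond counting error. In stretched skin the order was Irf3 (15.4 FPKM), Irf7 (13.3), Irf5 (12.9), Irf9 (9.60), Irf1 (7.95), Irf4 (5.27), Irf2 (3.38) and Irf8 (2.59). Here only Irf7 and Irf5 were neighbours whose levels did not differ beyond counting error. Irf7 moved from sixth to second place. Its part in the summed FPKM of the 8 genes was 7.28% without and 18.9% with stretch, while that of Irf3 was 32.3% and 21.9%. The sum itself was 46.5 FPKM without and 70.5 FPKM with stretch. The order depends on the length used, because the union of exons joins the exons of all annotated transcripts. With the longest protein-coding transcript Irf3 was still first and Irf7 second in stretched skin (26.1 and 22.5 FPKM), and Irf4 in place of Irf8 came last there (5.42 and 6.42 FPKM).

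**Figure D1:**
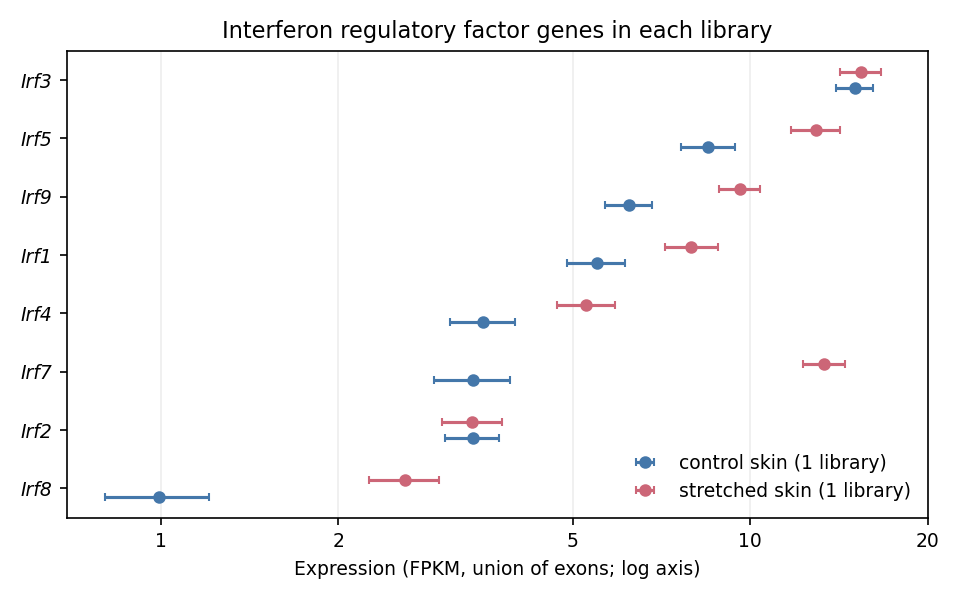
Level of each Irf gene in FPKM on a log axis, with 1 point per library and bars for the 95% Poisson interval of the count. The points of Irf3 and Irf2 overlap between the libraries, and Irf7 has the widest gap, from 3.39 FPKM in control skin to 13.3 FPKM in stretched skin.

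Irf7 was the Irf gene that differed most between the libraries. Irf7 amplifies the type I interferon response, and it had 181 counts in the control library and 587 in the stretched library. As CPM, the usual scaling of counts to the library total, these are 12.8 and 50.4. The intervals of the levels did not overlap, and Irf7 was 3.94-fold higher in stretched skin (interval 3.33 to 4.68, log2 fold change 1.98). Of the 16255 genes measured with more than 3 counts in at least 1 library, 215 had a larger log2 fold change. The gene lies on the minus strand of chromosome 7 from 141262706 to 141266481. Irf3, the other sensor-driven factor, is made constitutively in most cells and is controlled mainly by phosphorylation. It had 732 counts (51.7 CPM) in control skin and 618 counts (53.1 CPM) in stretched skin. The libraries overlapped for Irf3, with a log2 fold change of 0.04 and an interval of -0.12 to 0.19. A difference in Irf3 RNA was thus not detectable at this depth.

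Irf9, the DNA-binding part of ISGF3, had 474 counts (33.5 CPM) in control skin and 602 counts (51.7 CPM) in stretched skin. It was 1.54-fold higher in stretched skin, or 0.63 in log2 fold change (interval 0.45 to 0.80). The activator Irf1 had 309 counts (21.8 CPM) and 368 counts (31.6 CPM). Its log2 fold change of 0.53 (interval 0.31 to 0.76) was of similar size to that of Irf9. The repressor Irf2 had 354 counts and 291 counts, which are 25.0 CPM in each library. The log2 fold change of Irf2 was -0.00 (interval -0.23 to 0.23) with scaling by total counts, and it was positive with every other scaling tried.

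Irf8, Irf5 and Irf4, the members best known from leukocytes, were each higher in stretched skin. Irf8 had the fewest counts of the family, with 99 (7.0 CPM) in control skin and 213 (18.3 CPM) in stretched skin. It was 2.61-fold higher (interval 2.05 to 3.35, log2 fold change 1.39), second to Irf7 in size. Irf5 had 349 counts (24.7 CPM) and 437 counts (37.5 CPM), a log2 fold change of 0.61 (interval 0.40 to 0.81). Irf4 had 244 counts (17.2 CPM) and 301 counts (25.8 CPM), with 0.58 in log2 fold change (interval 0.34 to 0.83). The counting intervals of Irf1, Irf4, Irf5 and Irf9 overlapped one another, so the order among these 4 genes is not fixed. In whole skin, a larger number of cells that express a gene and more RNA per cell cannot be told apart.

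**Figure D2:**
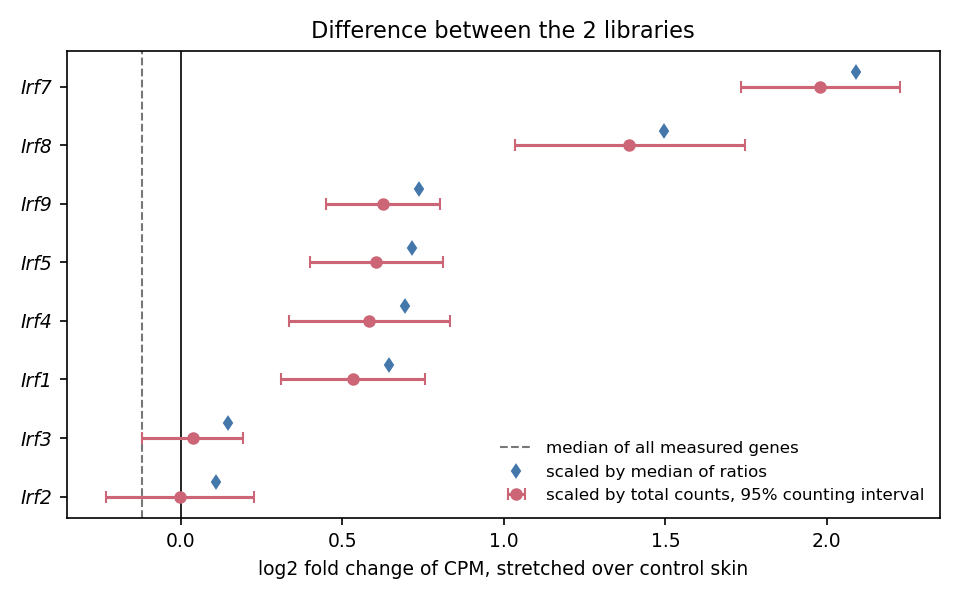
Log2 fold change of CPM for each Irf gene, stretched over control skin, with the 95% counting interval as a bar. Diamonds give the value after scaling by median of ratios, and the dashed line is the median of all measured genes (-0.12). Irf7 and Irf8 stand to the right of the other genes, 4 genes lie between 0.53 and 0.63, and the intervals of Irf2 and Irf3 include 0.

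The promoters of 3 members are shown because they hold the letters of an element through which interferon signals are known to act. RefSeq (GRCm38.p6, the assembly of mm10) gave 11 promoter entries for the 8 genes, each with 250 bases before and 50 after a transcription start. In all, 3 patterns were searched on both strands, the STAT element GAS as TTCNNNGAA, the core of the interferon-stimulated response element as GAAA and, after any 2 bases, GAAA again, and a kappa B element as GGGANTTCC. Of the 32851 promoters in the table, 8.3% held the GAS letters, 3.44% the response element letters and 1.68% the kappa B letters. Irf1 (chr11:53769764-53770063, plus strand) had 1 GAS match and Irf8 (chr8:120736108-120736407, plus strand) had 2 GAS matches. Irf2 (chr8:46739495-46739794, plus strand) had 1 match to each of the 3 patterns. None of the matches overlapped another. The matches are in capitals, and each sequence is written 5′ to 3′ along its gene.
Irf1: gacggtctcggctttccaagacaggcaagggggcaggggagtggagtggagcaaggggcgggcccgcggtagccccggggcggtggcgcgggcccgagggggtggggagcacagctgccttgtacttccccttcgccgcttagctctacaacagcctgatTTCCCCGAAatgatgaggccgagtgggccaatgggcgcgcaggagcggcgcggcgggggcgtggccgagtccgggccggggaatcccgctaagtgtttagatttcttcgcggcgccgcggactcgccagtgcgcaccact
Irf8: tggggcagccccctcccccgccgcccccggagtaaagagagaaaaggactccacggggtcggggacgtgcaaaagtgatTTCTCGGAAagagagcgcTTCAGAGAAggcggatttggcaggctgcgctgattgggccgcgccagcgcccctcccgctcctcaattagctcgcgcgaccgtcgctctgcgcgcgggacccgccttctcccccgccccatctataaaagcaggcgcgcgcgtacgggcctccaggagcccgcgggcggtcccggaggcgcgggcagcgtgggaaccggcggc
Irf2: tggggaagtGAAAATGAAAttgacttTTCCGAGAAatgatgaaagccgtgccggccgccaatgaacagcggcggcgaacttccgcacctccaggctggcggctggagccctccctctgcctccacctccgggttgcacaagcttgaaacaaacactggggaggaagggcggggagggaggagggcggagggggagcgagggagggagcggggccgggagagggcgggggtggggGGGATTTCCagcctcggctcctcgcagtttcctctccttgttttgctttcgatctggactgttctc

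Counted from the transcription start, the GAS letters began at position -90 in Irf1, at -171 and -153 in Irf8, and at -224 in Irf2. The response element letters GAAAATGAAA began at -241 in Irf2 and the kappa B letters GGGATTTCC at -16. The 3 genes with a match differed in their values, since Irf8 and Irf1 were higher in stretched skin and Irf2 was at the same CPM in both libraries. No match to the 3 patterns was found in the windows of Irf3, Irf4, Irf5, Irf7 or Irf9, including Irf7, the member with the largest difference. These windows leave out introns and distal elements.

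Set against the whole table, 6 of the 8 Irf genes had an interval wholly above 0 and none had an interval wholly below 0. The background was 18.1% of the 16255 measured genes with an interval above 0 and 33.5% with an interval below 0. For log2 fold change the median of the Irf genes was 0.59, whereas that of all measured genes was -0.12. Genes with more counts pass this criterion more easily, and of the 12740 genes that reach 100 counts when both libraries are added 2552 had an interval above 0. By the filter and threshold in the study's methods, a gene counts as upregulated when the product of its FPKM values (EV) is above 10 and its fold change is at least 2. With 1 added to each FPKM, 7 of the 8 Irf genes passed the filter. Irf7 was called upregulated (EV 62.9), against a background of 2.61% of the 10909 genes that passed, and no Irf gene was called downregulated (background 2.44%). Irf8 did not pass the filter (EV 7.15), and with 1 added to FPKM its fold change was 1.80, below the threshold. It was called together with Irf7 when the length of the longest transcript, or CPM in place of FPKM, was used.

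**Figure D3:**
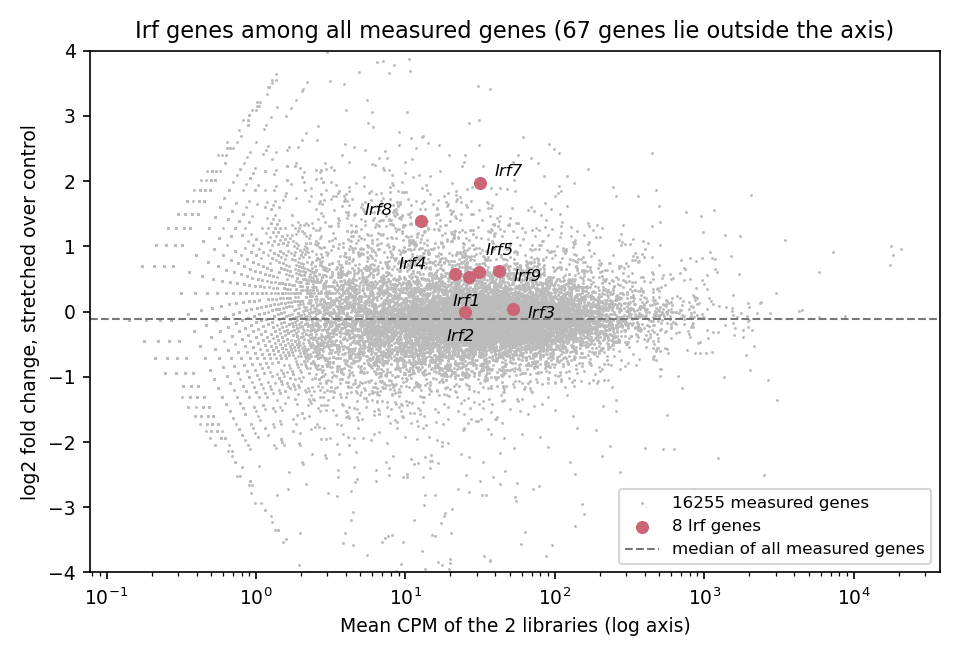
Log2 fold change against the mean CPM of both libraries (log axis) for the 16255 measured genes in grey, with the 8 Irf genes as large points and the median of all genes (-0.12) as a dashed line. Counts below 3 are drawn at 3, and 67 genes lie outside the axis. Irf7 and Irf8 lie at the upper edge of the genes of like level, while Irf2 and Irf3 lie near the dashed line.

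Ratios between members within a library do not depend on how the libraries were scaled. Per length, the ratio of Irf7 to Irf3 was 0.225 without and 0.866 with stretch, a 3.84-fold change (interval 3.14 to 4.71). Against Irf9, which belongs to the complex that acts on the Irf7 gene, the ratio of Irf7 was 0.545 and 1.39 (2.55-fold, interval 2.07 to 3.16). The ratio of the activator Irf1 to the repressor Irf2 was 1.62 and 2.35, a 1.45-fold change (interval 1.16 to 1.81). The ratio of Irf8 to Irf4 changed 1.74-fold (interval 1.29 to 2.36). By contrast, the ratio of Irf5 to Irf4, factors that compete for the adaptor Myd88, was 2.41 and 2.45 with an interval of the change from 0.81 to 1.27. Of the 28 pairs of members, 21 had an interval that excluded 1, including all 7 pairs with Irf7, in which the ratio of Irf7 to the other gene was higher in stretched than in control skin.

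The 10 interferon ligand genes were almost absent, and 8 of them, including Ifnb1, Ifna4 and Ifnl3, were listed at 0 in both libraries. A count of 0 allows up to 3 counts, which is 0.212 CPM without and 0.258 CPM with stretch. Ifng and Ifnk, the interferon of keratinocytes, had 0 counts in control skin and 1 count each in stretched skin. The 11 receptor and JAK-STAT genes were all measured, and their median log2 fold change was 0.25. Intervals lay above 0 for 9 of them and below 0 for none. Ifnar2, a chain of the type I receptor, had the largest value (326 and 422 counts, 0.65), followed by Stat2 (525 and 653 counts, 0.60). Ifnlr1, the receptor chain of interferon lambda, had the lowest value (185 and 135 counts, -0.17) with an interval that included 0. The most abundant were Jak1 (2734 and 2499 counts, 0.15) and Ifngr1 (1498 and 1478 counts, 0.26).

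Among the 18 sensors, adaptors and kinases that act on IRF proteins, 12 had an interval above 0, 2 below 0 and 4 including 0, with a median log2 fold change of 0.35. Only Dhx58, a helicase that tunes RNA sensing, was called upregulated (60 and 145 counts, 1.55). The endosomal receptors upstream of Irf7 and Irf5 had values of 2.07 for Tlr9 (29 and 100 counts) and 1.53 for Tlr7 (60 and 143 counts). The DNA sensing adaptor Tmem173 (STING) was at 0.91 (227 and 350 counts). The kinases that phosphorylate Irf3 and Irf7 had smaller values, with 0.36 for Tbk1 (410 and 432 counts) and 0.34 for Ikbke (309 and 323 counts). Irak1 was the most abundant gene of the list (1242 and 1106 counts, 0.11), with an interval that included 0, followed by Traf3 (748 and 733 counts, 0.25). Traf6, a ubiquitin ligase that links Myd88 to Irf5 and Irf7, had the lowest value (755 and 488 counts, -0.35), and Mavs, the adaptor of RNA sensing, was also lower (689 and 503 counts, -0.17).

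The 10 partners and co-repressors of IRF proteins went both ways, with a median log2 fold change of 0.68 (6 intervals above 0, 1 below 0 and 3 including 0). This median rests on genes with few counts, since it was 0.17 over those with at least 20 counts and 0.36 with 1 CPM added to both values. Spi1, which encodes PU.1, the partner of Irf4 and Irf8 on DNA, was called upregulated (180 and 393 counts, 1.41). Ikzf1, another partner of Irf8, was at 1.36 (87 and 184 counts). Batf3, which acts with Irf8 in dendritic cells, had the largest value but few counts (10 and 32, 1.96, interval 0.90 to 3.15). The co-repressors that bind Irf2 had small values, with 0.13 for Irf2bp2 (1309 and 1180 counts), 0.14 for Irf2bpl (942 and 857 counts) and -0.25 for Irf2bp1 (579 and 401 counts).

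The 8 brakes on interferon signalling also went both ways, with a median of 0.19 (4 intervals above 0, 2 below 0). Usp18 (65 and 151 counts) and Isg15 (61 and 156 counts, 1.64), which are themselves interferon targets, were called upregulated. Socs1, a classical inhibitor of cytokine signalling, had 93 and 70 counts (-0.13) and an interval that included 0. Ptpn11 was the most abundant and the lowest (3245 and 1925 counts, -0.47), and Socs3 had 795 and 884 counts (0.43).

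Known targets of the IRF proteins differed between the lists. All 12 targets of ISGF3 had an interval above 0, with a median log2 fold change of 1.80, and 7 were called upregulated. These were Ifit1 (48 and 193 counts, 2.29), Ifit3 (61 and 210 counts, 2.06), Oasl2 (167 and 516 counts, 1.91), Oas2 (145 and 385 counts, 1.69), Isg15, Usp18 and Rtp4 (81 and 182 counts, 1.45). Ifit2 had the lowest value of the list (134 and 181 counts, 0.71). The 12 targets of Irf1 had a median of 0.46, with 6 intervals above 0 and 6 including 0, and Gbp2 was the only one called upregulated (183 and 344 counts, 1.19). The antigen presentation genes B2m (6104 and 7181 counts, 0.52) and Tap1 (895 and 810 counts, 0.14) were the most abundant of the Irf1 list, and the interval of Tap1 included 0. Casp1, with 176 and 144 counts, had the lowest value (-0.01).

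All 10 myeloid targets of Irf8 had an interval above 0, with a median of 1.42. The 7 called upregulated were Fcgr1 (2.68), Mpeg1 (2.02), Ctss (1.84), Cybb (1.61), Ncf1 (1.23), Csf1r (1.15) and Cd74 (1.09). Ctsc had the lowest value (1469 and 1635 counts, 0.44), and Cd74, the invariant chain of class II antigen presentation, had the most counts (3548 and 6196). The 8 targets linked to Irf4 in alternatively activated macrophages went both ways, with 5 intervals above 0, 1 below 0 and 2 including 0. Chil3, which encodes Ym1, was called upregulated (31 and 214 counts, 3.07), and Mrc1, which encodes CD206, was at 0.94 (1649 and 2613 counts). Retnla (879 and 698 counts, -0.05) and Mgl2 (417 and 335 counts, -0.04) had intervals that included 0. Arg1 had the lowest value of the list and was lower in stretched skin (216 and 107 counts, -0.73, interval -1.08 to -0.39). The median of the 8 genes was 0.73, against 0.52 over those with at least 20 counts. Of the 8 cytokine genes linked to Irf5, 6 could be measured and 4 had an interval above 0. Il1b was called upregulated (37 and 179 counts, 2.56), whereas Tnf (17 and 36 counts, 1.36) and Cxcl10 (17 and 63 counts, 2.17) were measured on few counts and Il12b had 0 and 3 counts. Il12a had 1 and 4 counts, and its control count was replaced by 3. The median of the 6 genes was 1.77, against 2.17 over those with at least 20 counts and 1.11 with 1 CPM added to both values.

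**Figure D4:**
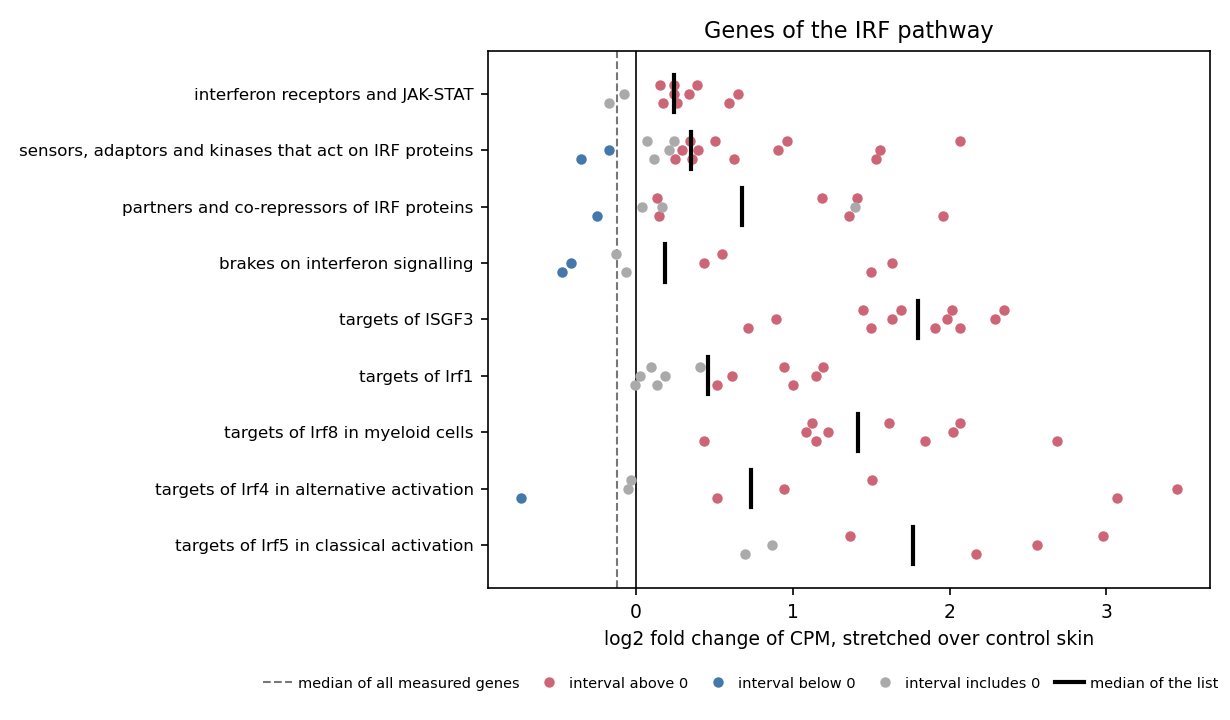
Log2 fold change of each measured gene in 9 lists of the IRF pathway, stretched over control skin, with points coloured by whether the counting interval lies above 0, below 0 or includes 0, and a bar for the median of each list. Counts below 3 are drawn at 3, and the interferon ligands are left out because none had more than 3 counts. The targets of ISGF3 (median 1.80) and Irf8 (median 1.42) lie to the right, with all intervals above 0, while receptors (0.25) and brakes (0.19) lie near 0.

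Over the 10 lists, 92 of 104 genes could be measured, with 65 intervals above 0 and 6 below 0, and their median log2 fold change was 0.62. Isg15, Usp18 and Tlr9 stand in more than 1 list and are counted once here. Csf1r, Fcgr1 and Mrc1 also stand among the macrophage markers below, and Mgl2 and Cd209a among those of type 2 conventional dendritic cells. The lists were put together with earlier results of these data known, so these counts are a description.

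Most macrophage markers and the markers common to leukocytes were higher in stretched skin, as were 6 of the 8 Irf genes. The 4 measured neutrophil markers were also higher, with a median log2 fold change above that of the macrophage markers (2.21 against 1.34). Of the 6 mast cell markers, 5 were higher as well. Most measured markers of type 1 conventional dendritic cells, T cells and B and plasma cells did not have an interval above 0. Those of plasmacytoid dendritic cells were divided, with 2 intervals above 0 and 2 including 0. All 12 macrophage markers were measured, their summed level was 1008 CPM without and 2262 CPM with stretch, and 10 had an interval above 0. The most abundant were Lyz2 (3975 and 8471 counts, 1.37) and Csf1r. The interval of Mertk (-0.12) included 0. The 4 markers shared by leukocytes summed to 130.0 CPM and 332.9 CPM, with 1.49 for Laptm5, 1.33 for Coro1a and 0.93 for Ptprc, which encodes CD45. Irf8 (1.39) was close in log2 fold change to Cd68 (1.47) and C1qb (1.36), while Irf5 (0.61) and Irf4 (0.58) were below the median of the macrophage markers (1.34) and Irf7 (1.98) was above it. Markers of plasmacytoid dendritic cells, in which Irf7 and Irf8 are known to be high, were at 11 and 11 counts for Siglech and 16 and 13 counts for Ccr9, and Klk1 was listed at 0. Bst2 of that list, also an interferon target, had 225 and 687 counts (1.89), while Tcf4, which is not particular to these cells, had 1216 and 1113 counts (0.15). For type 1 conventional dendritic cells, which need Irf8, Xcr1 had 28 and 17 counts and Clec9a 11 and 16, while the less particular Cadm1 (468 and 272 counts) and Wdfy4 (87 and 154 counts) went in opposite directions. For type 2 cells the 5 markers had a median of 0.52, with 0.96 for Clec10a (706 and 1132 counts), while the intervals of Mgl2 (-0.04) and Zbtb46 (0.28) included 0. Apart from Sdc1 (6906 and 4656 counts), which epithelia also express, B and plasma cell markers were close to absent, with 8 and 9 counts for Cd79b and Ms4a1 listed at 0 in both libraries. The 6 melanocyte markers, a cell type in which Irf4 acts on the tyrosinase gene, were all lower in stretched skin, with Dct at -1.04 and Pmel at -1.24. Their summed level was 437 CPM without and 194 CPM with stretch, in the opposite direction from Irf4. The keratinocyte markers had a median of 0.02, with 4 intervals above 0, 2 below 0 and 1 including 0. The most abundant were Krt10 (0.02) and Krt5 (0.01), Krt14 was at 0.28, and Ivl (-0.53) and Trp63 (-0.49) were lower. Those of fibroblasts had a median of 0.25, with Col1a1 at 168121 and 277385 counts and Col1a2 at 0.87 in log2 fold change. Defining markers of skin were abundant in both libraries, with 14918 and 15798 CPM summed over the keratinocyte genes. The part of these cell types in the values of the Irf genes was not tested.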

How the data were processed

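Whole-layer skin was sequenced as 1 control and 1 stretched library of single-end reads of 76 bases. The authors filtered the reads, aligned them to mm10 with TopHat2 and deposited raw counts per gene symbol, without normalization; the counting program, its annotation and its strand setting are not given in the sources used here. Exon lengths came from GENCODE M21 for 23376 symbols by name and 649 by RefSeq synonym, and 396 symbols had no length. FPKM used the library total and the union of exons, not the Cufflinks of the study's methods. Each gene's fold change is the CPM ratio without a pseudocount, with exact Clopper-Pearson intervals, which cover counting error only; counts below 3 were replaced by 3. The interval of a ratio of 2 genes is that of the conditional odds ratio. The study's thresholds were applied with 1 added to FPKM, a pseudocount its methods do not state. The calls and intervals were tested on simulated data drawn with counting error only, which says nothing about the spread between mice. No replicates exist, so no test was run. Alternative scalings came from edgeR 4.0.16 (TMM, upper quartile), DESeq2 1.42.0 (median of ratios) and totals that omit the top 50 genes, beside other pseudocounts, filters, units and lengths. Named in the text were all 8 members and, of each list, the called genes, the 2 with the most counts and the lowest, the ligands with a count, and the 3 genes nearest each member. Further genes, such as Tlr7, Tbk1, Ikzf1 and Tnf, and the ratios between members, were picked once their values were known. Some listed genes are not reported here by name. The members and lists were chosen with earlier results of these data known. Python 3.11.15, numpy 2.4.6, pandas 2.3.3, scipy 1.17.1, matplotlib 3.10.9 and R 4.3.3 were used.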

Additional observations from a re-analysis of the deposited data

How the results depend on the processing

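The other scalings added one shift to every log2 fold change, 0.10 for both TMM and upper quartile, 0.11 for median of ratios and 0.06 for totals that omit the top 50 genes. None of the 40 values of single Irf genes under the alternatives left its counting interval, and the sign of Irf2 turned positive with each of the 4 scalings. For a median, the range used was the mean lower and mean upper bound of the middle genes, which is not an interval of the median itself. The median of the Irf genes stayed within that range in every alternative run. Irf7 was called upregulated in 11 of the 12 alternatives. With EV above 100, which keeps fewer genes, 0 Irf genes were called, with 137 genes upregulated and 130 downregulated in all. With CPM in place of FPKM, 2 Irf genes were called, with 454 upregulated and 442 downregulated in all, and 2 were called with the length of the longest transcript and 2 with that of the longest protein-coding transcript, the last added after seeing the data. The second gene was Irf8 each time. Of the 54 values of the pathway lists under the alternatives, 1 moved past the range set for its median. It was the median of the ISGF3 targets, which was 1.52 with 1 CPM added. The median of the brakes, 0.19, was 0.29 with TMM or upper quartile and 0.30 with median of ratios. No paired analysis was possible because each condition has only 1 library, which also means that none could be omitted in turn. The depth limits Irf8 most among the members, and the interferon ligands could not be measured.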

Other observations

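Among the 12680 genes with an exon length, more than 3 counts in each library and at least 100 in all, those nearest to each Irf gene in the log2 FPKM of both libraries were found. This likeness rests on 2 libraries, and with so many genes some lie close by number alone. The nearest to Irf7 were Lrrn1 (184 and 571 counts, log2 fold change 1.91), Scd3 (163 and 631 counts, 2.23) and Fam180a (89 and 237 counts, 1.69), at distances of 0.054 to 0.222. The nearest to Irf8 were Ccdc88b (69 and 154 counts, 1.44), Ikzf1 and Isl1 (52 and 112 counts, 1.39), and those nearest to Irf9 were Nfatc4 (0.65), Miat (0.62) and Stat2 (0.60). Irf1 lay next to Uap1l1, Ap1s2 and Sh3bp2, and Irf5 next to 2310022A10Rik, Abi3bp and Anxa3. Irf4 lay next to Rfx1, Jam3 and Pglyrp3, Irf2 next to Slc37a2, Rnf24 and Exoc1, and Irf3 next to Atad3a, Extl3 and Pi4kb.

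Other cell type markers also differed between the libraries. The median over the 4 measured neutrophil genes was 2.21 in log2 fold change, with S100a8 at 57 and 283 counts and Csf3r at 50 and 235 counts. For the 6 genes of mast cells the median was 0.55, with Mcpt4 at 0.59 and Cpa3 at 0.37, while Kit of that list was lower (470 and 250 counts). For the 5 measured T cell genes it was 0.40, with 51 and 56 counts of Cd3g and 36 and 39 counts of Lck, and Cd4 was the one with an interval above 0 (15 and 56 counts). The 4 adipocyte genes were all lower (median -0.80), with Fabp4 (9146 and 5115 counts) and Adipoq (3035 and 1466 counts) the most abundant. Skeletal muscle genes had a median of -0.38, with 5 of 6 lower, among them Acta1 (-0.07) and Myh4 (-4.57), while Myh1 was higher (1.10). Endothelial genes had a median of 0.23, with Pecam1 (0.50) and Cdh5 (0.57) higher, Tek at -0.03 with an interval that included 0, and Kdr lower (-0.37). The 3 Langerhans cell genes had a median of 0.15, with 0.46 for Cd207, their defining marker (135 and 153 counts, interval 0.12 to 0.81). Epcam (1505 and 1174 counts) and Mfge8 (2231 and 2040 counts), which other skin cells also express, were the most abundant.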
